A study of Mus musculus with 24 samples.

Results

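The MAP kinase phosphatases of the Dusp family are 10 genes (Dusp1, Dusp2, Dusp4, Dusp5, Dusp6, Dusp7, Dusp8, Dusp9, Dusp10 and Dusp16), and all 10 were present among the 15736 genes of the count table. They were taken by name and not by a measured value, although earlier results of these data were known when they were chosen. The question was how their transcripts responded when FGFR2b ligands were trapped in the mouse otocyst, and whether the members directed at ERK behaved differently from those directed at the stress kinases. RNA was read from otocyst epithelium by stranded poly(A) sequencing in 22 libraries. Control libraries (con) came from Rosa26rtTA/+ embryos, which carry the doxycycline-dependent activator rtTA at the widely active Rosa26 locus. Transgenic libraries (R2b) came from Rosa26rtTA/+;Tg(tetO-s(dn)Fgfr2b)/+ embryos, in which rtTA also switches on a soluble dominant-negative FGFR2b that binds FGF ligands outside the cell. The dams of both genotypes were given doxycycline (1.5 mg/kg injected, then chow at 200 mg/kg), so drug and activator were shared by all libraries. Exposure ran for 12 hours from E9.75 (E9.75+12h, 3 litters), for 24 hours from E9.25 (E9.25+24h, 4 litters) or for 24 hours from E10.25 (E10.25+24h, 4 litters). The 12-hour and the earlier 24-hour exposure both ended at E10.25, and E10.25+24h ended at E11.25. Every library is a pool of otocysts of 1 genotype from 1 litter, so con and R2b pools of a litter share a mother. Because whole epithelia were pooled, fewer cells of a type and less RNA per cell cannot be told apart.

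Receptor tyrosine kinases such as FGFR2b activate the ERK cascade, in which a phosphate on a threonine and another on a tyrosine switch the kinase on. MAP kinase phosphatases remove both phosphates and so switch the kinase off. Several of their genes are themselves induced by ERK activity, which makes them negative feedback regulators. Dusp6, Dusp7 and Dusp9 encode cytoplasmic enzymes that prefer ERK, and Dusp5 encodes a nuclear enzyme specific for ERK. Dusp1, Dusp2 and Dusp4 encode inducible nuclear enzymes that act on ERK and also on JNK or p38. Dusp8, Dusp10 and Dusp16 encode enzymes that mainly act on JNK and p38, the kinases of the stress response. In embryos, Dusp6 is a widely used marker of places where FGF signals.

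Promoter sequences of RefSeq (GRCm38.p6) were available for 8 of the 10 members. Dusp4, whose transcript also fell, and Dusp9 had none and were not searched. The 200 bases from 250 to 51 bases before the annotated start are shown for 4 of them. Dusp6 and Dusp1 are shown because their transcripts fell, as described below. Dusp5 and Dusp8 are shown beside them because their windows, like that of Dusp1, hold TGACGT while their transcripts did not pass the test. No window of another member held the CGGAAG of Dusp6. Each is printed 5′ to 3′ on the strand of its gene. Capitals mark matches, on either strand, to CGGAAG (a core recognised by ETS factors), TGACGT or TGACGTCA (cyclic AMP response element, CRE), TGANTCA (AP-1) or the CArG box (serum response factor). The windows lie at chr10:99262981-99263180 (plus strand, Dusp6), chr17:26508523-26508722 (minus strand, Dusp1), chr19:53528895-53529094 (plus strand, Dusp5) and chr7:142095335-142095534 (minus strand, Dusp8).
Dusp6: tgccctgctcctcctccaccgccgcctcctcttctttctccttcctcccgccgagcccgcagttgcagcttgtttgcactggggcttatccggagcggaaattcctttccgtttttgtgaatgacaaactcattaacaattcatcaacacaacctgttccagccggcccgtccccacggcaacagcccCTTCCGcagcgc
Dusp1: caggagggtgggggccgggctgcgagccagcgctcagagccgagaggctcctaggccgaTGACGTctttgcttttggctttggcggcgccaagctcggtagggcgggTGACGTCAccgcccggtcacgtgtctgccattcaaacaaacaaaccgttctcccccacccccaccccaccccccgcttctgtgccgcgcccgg
Dusp5: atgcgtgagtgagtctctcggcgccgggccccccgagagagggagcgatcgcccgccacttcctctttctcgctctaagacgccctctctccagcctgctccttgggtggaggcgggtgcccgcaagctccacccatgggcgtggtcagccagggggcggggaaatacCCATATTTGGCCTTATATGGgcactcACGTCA
Dusp8: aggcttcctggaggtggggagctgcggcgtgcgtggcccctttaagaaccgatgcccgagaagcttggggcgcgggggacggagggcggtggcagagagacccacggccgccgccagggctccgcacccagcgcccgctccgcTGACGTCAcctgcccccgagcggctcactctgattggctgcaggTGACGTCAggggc

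The Dusp6 window held a CGGAAG match on its minus strand at -62 to -57 from the start, a match found in 9.31% of 32514 promoter windows of the same length. None of the 8 windows held the longer CCGGAAGT, which 1.41% of all windows held. In Dusp1 a TGACGTCA stood at -143 to -136 (0.833% of all windows) and a separate TGACGT at -191 to -186 (4.18% of all windows, a count that includes the longer element). Dusp8 had TGACGTCA at -107 to -100 and again at -63 to -56. In Dusp5, CArG boxes adjoined at -82 to -73 and -72 to -63 (1.16% of all windows), with a TGACGT on the minus strand at -56 to -51. Dusp7, Dusp10, Dusp16 and Dusp2 matched none of the capitalised elements, and none of the 8 windows matched TGANTCA (5.55% of all windows). CACGTG, the E-box, occurred in Dusp1 and Dusp2 (4.34% of all windows). The 8 windows were 58% to 77.5% G or C, against a median of 51.5% over all windows. A TGACGTCA was thus present both in a gene whose transcript fell and in one whose transcript did not pass the test, and a match to these letters is a description of the sequence.

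Library totals ran from 18.7 to 28.2 M counts. All 12 otic epithelial markers, among them Pax2, Oc90 and Epcam, were detected, with summed levels of 2287 to 7753 CPM (counts per M after TMM scaling) in every library. Markers of other tissues were present too, with summed levels of 87.1 to 1331 CPM for mesenchyme, 9.47 to 4941 CPM for blood, 2.33 to 218 CPM for endothelium, 7.56 to 34.9 CPM for hindbrain and 175 to 469 CPM for neuroblasts. Of the hindbrain markers looked for, Olig2, Olig3, Nkx2-2 and Pax6 had no row in the count table, so the hindbrain sums rest on 4 genes. No marker with a row was at 0 in all libraries of a group. That says little, because every gene in the table had at least 100 counts in total. Both pools of litter 4 at E9.25+24h stood apart, with mesenchymal sums of 1331 (con) and 1227 CPM (R2b) against 87.1 to 426 CPM in the other libraries of that exposure. The transgene was checked through Ighg1, an immunoglobulin gene whose constant region is part of the trap. At E9.75+12h it held 0.993 to 1.99 CPM in con against 1025 to 3056 CPM in R2b, and at E9.25+24h 0.0482 to 0.248 CPM against 1230 to 1902 CPM. At E10.25+24h the libraries labelled con held 679, 1.42, 201 and 0.736 CPM in litters 1 to 4, and those labelled R2b held 54.7, 1155, 817 and 823 CPM. Litter 1 thus went against its labels and the library labelled con of litter 3 also held transgene reads. Tests of the members at E10.25+24h keep the labels and are given with and without litter 1.

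Trapping the ligands lowered a small subset of the family. Dusp6 and Dusp4 were lower in R2b in both exposures that ended at E10.25, and Dusp1 was lower after 24 hours. No member passed the test in the upward direction, and no stress-kinase phosphatase passed it in any exposure. With the litter as a block, Dusp9 did pass it upward at E9.25+24h (FDR 0.00196). A gene is named as having fallen or risen where its Benjamini-Hochberg adjusted p over all genes tested (FDR), from the quasi-likelihood test of edgeR, was under 0.05. At E9.75+12h, 2 of 9 members tested were called, both lower, where 20.0% of 14882 genes were called and 9.78% were called lower. At E9.25+24h, 3 of 10 were called, all lower, against 15.6% of 14979 genes called and 6.50% called lower. Lower in both exposures were 2 members, Dusp6 and Dusp4, against 3.89% of 14611 genes tested in both. At E10.25+24h, 0 of 10 members were called, and 0% of 15203 genes, with 175 genes at an unadjusted p under 0.05 in edgeR and 0 calls in DESeq2. Markers of tissues moved with genotype too. At E9.75+12h, 6 of 12 otic markers rose and 1 fell, with sums of 3887 to 4153 CPM in con and 4332 to 5159 CPM in R2b. Of all 14882 genes tested, 1518 rose and 1455 fell there. Hindbrain markers, with 1 of the 4 in the table called higher, summed to 10.24 to 12.7 CPM in con and 17.8 to 20.7 CPM in R2b. All 7 blood markers tested had log2 fold changes below 0 without a call (median -1.54). Their sums in litters 1 to 3 were 795.5, 21 and 293.8 CPM in con and 93.4, 114.3 and 119.1 CPM in R2b, so litter 2 went the other way. The endothelial marker Tek fell (-1.41, edgeR FDR 0.0159) and the mesenchymal marker Lum rose (1.15, edgeR FDR 0.00423). At E9.25+24h all 7 blood and 6 endothelial markers tested were below 0 (both medians -0.98) without a call, and of the 12 otic markers 2 rose and 2 fell. The con pool of litter 4 held a blood sum of 1627 CPM, and in litters 1 and 3 the blood sum was higher in R2b than in con. Of all 14979 genes tested, 1362 rose and 973 fell there. The part of these tissues in the changes of the members was not tested.

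**Figure D1:**
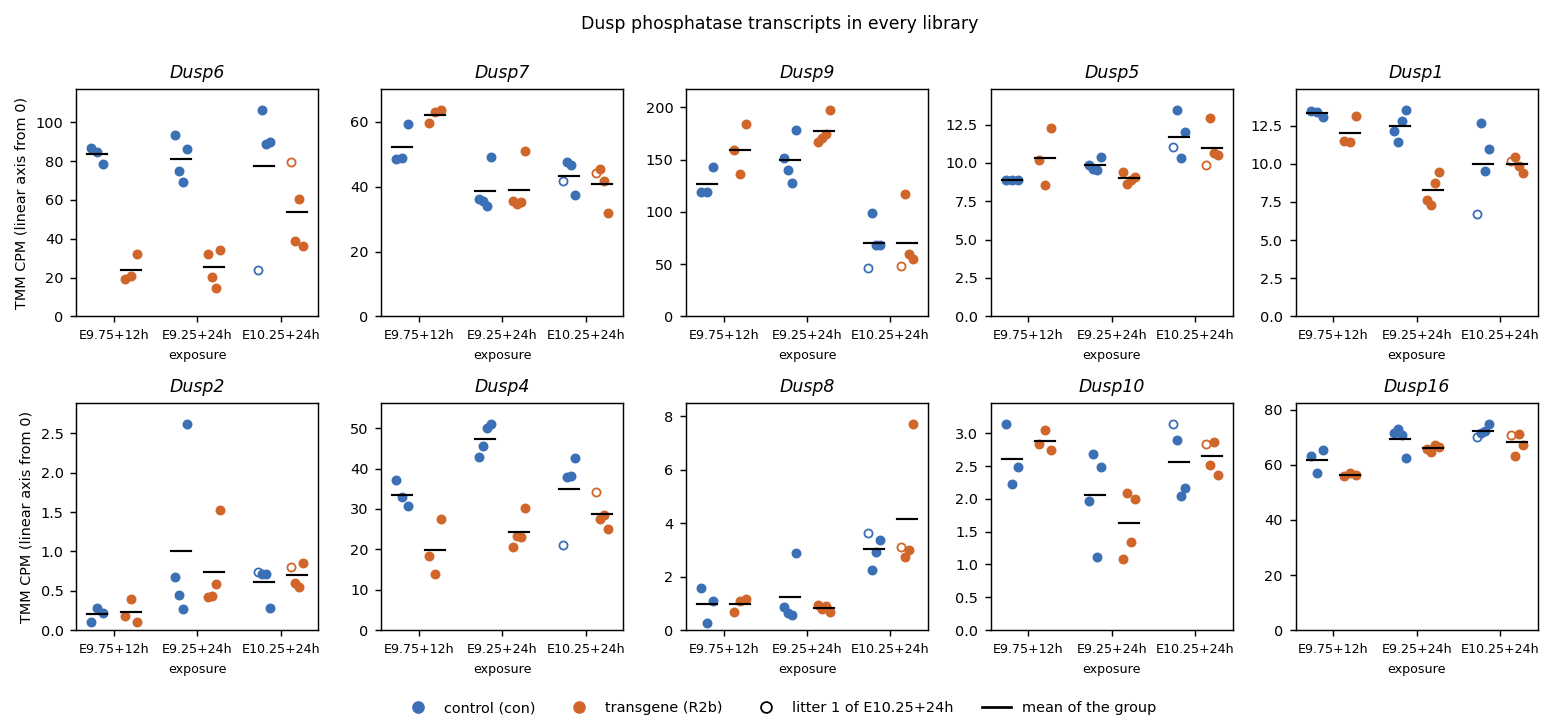
TMM-scaled counts per M (CPM, linear axes from 0) of each of the 10 phosphatases in each of 22 libraries, control (con) in blue and transgenic (R2b) in orange, with the group mean as a bar and litter 1 of E10.25+24h as open circles. Dusp6 and Dusp4 separate con from R2b without overlap in the first 2 exposures, while Dusp7, Dusp10 and Dusp8 overlap or stay close in most of them. Dusp1 at E9.25+24h is also without overlap. So are Dusp7 and Dusp16 at E9.75+12h and Dusp5 at E9.25+24h, which were not called, so absence of overlap alone does not mark a called change. The share of all genes without overlap is not given here.

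Dusp6 (ENSMUSG00000019960, chr10:99263231-99267489, plus strand, GRCm38) had the largest fall of the family. In litters 1 to 3 at E9.75+12h, con stood at 87.0, 84.7 and 78.7 CPM and R2b stood at 19.4, 20.7 and 32.1 CPM. All R2b pools lay far below all con pools. This amounted to -1.78 on the log2 scale (SE 0.17, edgeR FDR 3.467e-04), which left 0.292 of the control level, and the transcript was lower in 3 of 3 litters. At E9.25+24h the con libraries were at 93.5, 75.1, 69.5 and 86.1 CPM and the R2b libraries at 32.3, 20.3, 14.7 and 34.4 CPM, in litters 1 to 4. The groups again did not overlap, and the lowest R2b library (litter 3) belonged to the litter with the lowest con library. Some members without a call did not overlap either, and the share of all genes without overlap is not given here. The log2 fold change was -1.67 (SE 0.25, edgeR FDR 0.00441), with 4 of 4 litters lower. Without litter 2 the log2 fold change was -1.59 and the edgeR FDR 0.0514, the highest of all alternatives (the lowest was 7.878e-11), and without litter 4 it was -1.82 (FDR 0.00568).

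Dusp7 and Dusp9, which encode the other cytoplasmic ERK phosphatases, did not follow Dusp6. Dusp7 (ENSMUSG00000053716, chr9:106368632-106375724, plus strand) read 48.6, 48.9 and 59.5 CPM in con at E9.75+12h, and 59.5, 63.1 and 63.8 CPM in R2b. The lowest R2b pool barely exceeded the highest con pool. The log2 fold change of 0.27 (SE 0.11) had an edgeR FDR of 0.102. At E9.25+24h it was at 34.0 to 49.1 CPM in con and 34.7 to 51.0 CPM in R2b, or 0.02 on the log2 scale (SE 0.15, edgeR FDR 0.945). The highest library of each genotype was litter 4, whose mesenchymal marker sums were also the highest, and the part of those cells was not tested.

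Dusp9 (ENSMUSG00000031383, chrX:73639419-73643514, plus strand) was higher in R2b than in the con pool of the same litter in all 7 litters that ended at E10.25. At E9.75+12h its con libraries held 119, 119 and 143 CPM and its R2b libraries 159, 136 and 184 CPM. One R2b pool lay below the highest con pool, and the log2 fold change was 0.35 (SE 0.12, edgeR FDR 0.0638). DESeq2 called it (FDR 0.0438) and so did edgeR without litter 2 (FDR 0.0289), within a range of 0.00909 to 0.393 over all alternatives. At E9.25+24h con was at 151, 140, 128 and 179 CPM and R2b at 167, 170, 175 and 198 CPM. The highest con pool, of litter 4, lay above 3 of the R2b pools, so the groups overlapped. R2b minus con gave 0.26 on the log2 scale (SE 0.10, edgeR FDR 0.102). With the litter as a block it was 0.26 with an edgeR FDR of 0.00196, in a fit that called 40.6% of all genes tested and 20.5% in the upward direction. Without the con pool of litter 4 the FDR was 0.0235 and without that litter 0.0276, within a range of 6.495e-04 to 0.502 over all alternatives.

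Dusp5 (ENSMUSG00000034765, chr19:53529109-53542431, plus strand), the nuclear ERK phosphatase, did not pass the test. At E9.75+12h it was at 8.88 to 8.89 CPM in con and 8.56 to 12.3 CPM in R2b, with 0.24 on the log2 scale (SE 0.18, edgeR FDR 0.356). At E9.25+24h the 4 con pools (9.53 to 10.4 CPM) all lay above the 4 R2b pools (8.64 to 9.39 CPM). The difference was small, at -0.13 on the log2 scale (SE 0.09, edgeR FDR 0.364). Its exons share 547 bases with an antisense gene, and whether strand was used in counting is not given in the sources used here.

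**Figure D2:**
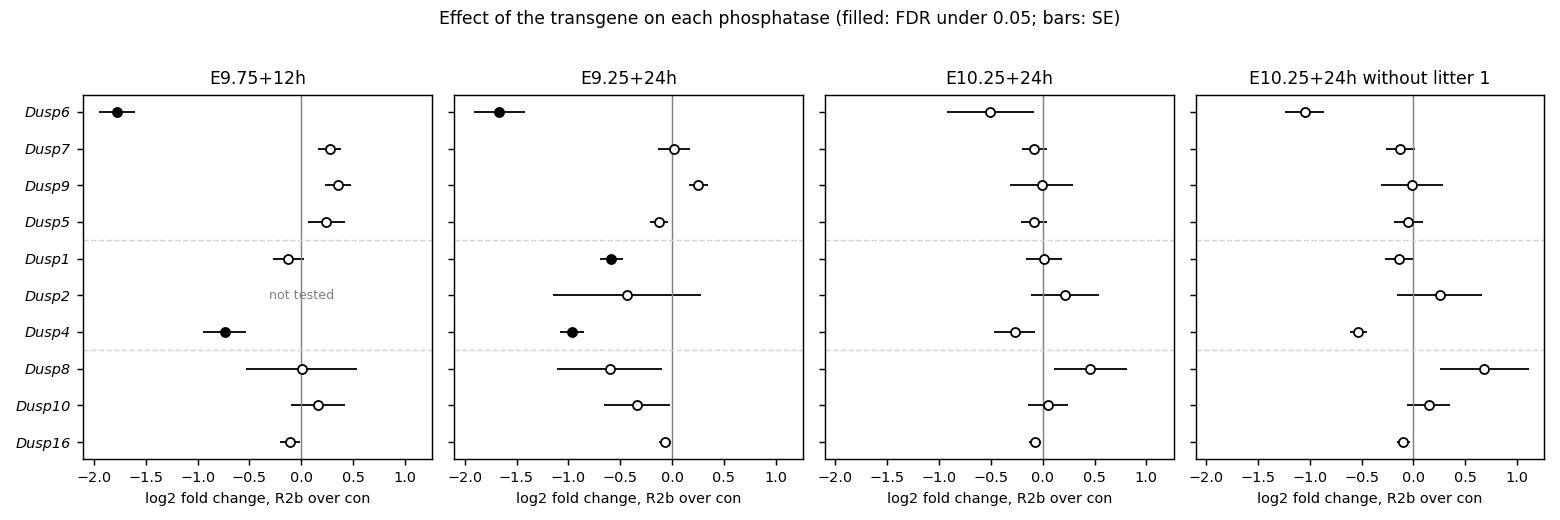
Log2 fold change of R2b over con (x axis) for each phosphatase, with bars of 1 SE, in 4 panels for the 3 exposures and for E10.25+24h without litter 1. Filled points mark an FDR under 0.05 in edgeR, which Dusp6 and Dusp4 reach in the first 2 panels and Dusp1 in the second. Dashed lines separate ERK-selective, broad nuclear and stress-kinase members.

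Dusp4 (ENSMUSG00000031530, chr8:34807297-34819894, plus strand), an inducible nuclear enzyme, was the other member that fell in both exposures ending at E10.25. At E9.75+12h con was at 37.1, 32.9 and 30.7 CPM and R2b at 18.2, 13.9 and 27.5 CPM. No R2b pool reached a con pool, but that of litter 3 came close, with a litter log2 ratio of -0.16 against -1.02 and -1.24 in litters 1 and 2. The log2 fold change was -0.74 (SE 0.21, edgeR FDR 0.0305). The call was lost without litter 1 (-0.60, edgeR FDR 0.281) or litter 2 (-0.56, FDR 0.0664). It was also lost without the con pool of litter 1 (FDR 0.114) or 2 (FDR 0.0731) or the R2b pool of litter 1 (FDR 0.115), within a range of 6.688e-05 to 0.281 over all alternatives. At E9.25+24h con was at 42.9, 45.5, 50.1 and 51.1 CPM and R2b at 20.5, 23.4, 23.0 and 30.2 CPM. Here every R2b pool was far below every con pool, and the litter log2 ratios lay between -1.12 and -0.76. The log2 fold change was -0.96 (SE 0.12, edgeR FDR 0.00201), which left 0.513 of the control level, and it was called in all 21 alternatives.

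Dusp1 (ENSMUSG00000024190, chr17:26505590-26562128, minus strand), the founding inducible member, fell after 24 hours. At E9.25+24h con was at 12.2, 11.4, 12.8 and 13.6 CPM and R2b at 7.64, 7.28, 8.73 and 9.50 CPM. The groups did not overlap and the litter log2 ratios were alike, from -0.67 to -0.51. On the log2 scale it fell by 0.59 (SE 0.11, edgeR FDR 0.0123). Without litter 1, 2 or 3 in turn the edgeR FDR was 0.0954, 0.0687 and 0.0509, with log2 fold changes of -0.56, -0.55 and -0.60. After 12 hours con was at 13.5, 13.4 and 13.1 CPM and R2b at 11.5, 11.5 and 13.2 CPM. The R2b pool of litter 3 lay at the control level, and the log2 fold change was -0.12 (SE 0.15, edgeR FDR 0.577). The effect at E9.25+24h minus that at E9.75+12h was -0.45 (SE 0.21, unadjusted p 0.0493, edgeR FDR 0.410), so a difference between the exposures was not called.

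Dusp2 (ENSMUSG00000027368, chr2:127336159-127338376, plus strand), the remaining broad nuclear member, was scarcely detected. It had 2 to 10 counts per library at E9.75+12h, where it did not pass the filter on low counts and was not tested. At E9.25+24h its level was 0.266 to 2.63 CPM in con and 0.425 to 1.53 CPM in R2b, or -0.44 on the log2 scale (SE 0.71, edgeR FDR 0.718). Litter 4 held the highest value of both genotypes, as it did for mesenchymal markers, and the part of those cells was not tested.

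**Figure D3:**
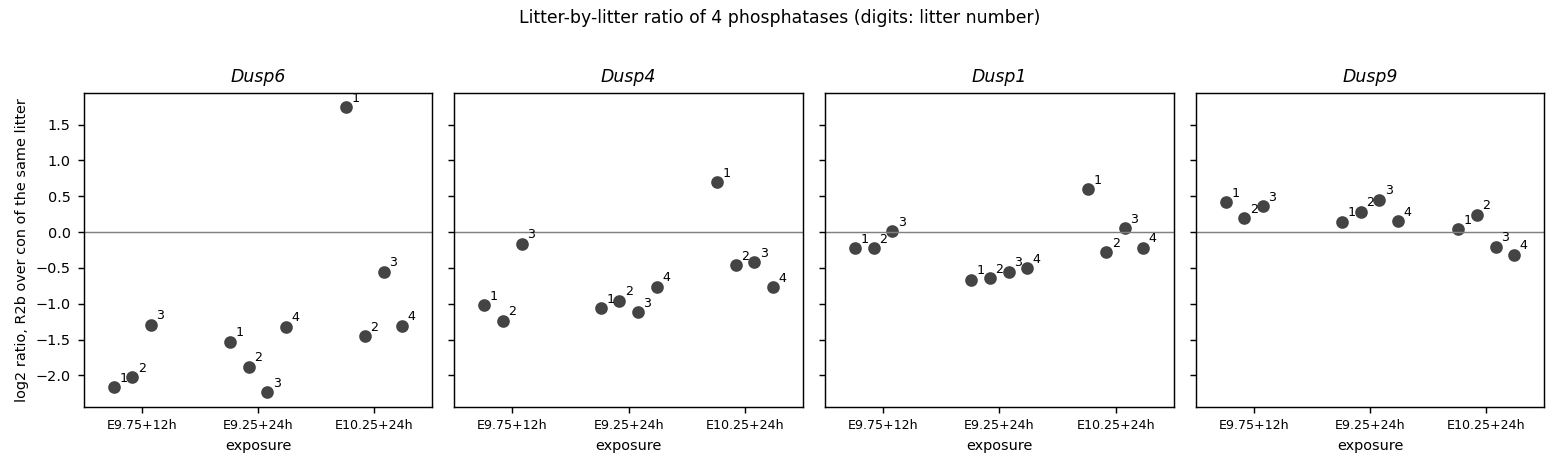
Log2 ratio of R2b over the con pool of the same litter (y axis) for Dusp6, Dusp4, Dusp1 and Dusp9 in each exposure (x axis), with the litter number beside each point. Dusp6 and Dusp4 are below 0 in all 7 litters of the first 2 exposures, and litter 1 of E10.25+24h has the opposite sign for Dusp6, Dusp4 and Dusp1.

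The stress-kinase phosphatases showed no call in any exposure. Dusp16 (ENSMUSG00000030203, chr6:134715468-134792625, minus strand) was the only one of the 3 above 10 CPM. At E9.75+12h its con pools held 57.2 to 65.3 CPM and its R2b pools 55.9 to 57.0 CPM. The groups were adjacent without overlap, and the change of -0.11 (SE 0.10) had an edgeR FDR of 0.447. At E9.25+24h the ranges were 62.5 to 73.2 CPM in con and 64.6 to 67.2 CPM in R2b, or -0.07 on the log2 scale (SE 0.06, edgeR FDR 0.453). Dusp10 (ENSMUSG00000039384, chr1:184013302-184075636, plus strand) was at 2.22 to 3.14 CPM in con at E9.75+12h and 2.75 to 3.05 CPM in R2b, with a log2 fold change of 0.16 (SE 0.26). At E9.25+24h it was at 1.12 to 2.68 and 1.08 to 2.09 CPM, or -0.34 on the log2 scale (SE 0.32, edgeR FDR 0.505). Dusp8 (ENSMUSG00000037887, chr7:142079490-142095843, minus strand) was at 0.285 to 1.57 CPM in con at E9.75+12h and 0.696 to 1.16 CPM in R2b. Its con pool of litter 4 at E9.25+24h held 2.91 CPM against 0.585 to 0.867 CPM in the other 3, and R2b held 0.668 to 0.943 CPM. The log2 fold change of -0.60 (SE 0.51, edgeR FDR 0.454) rested on that pool, and was 0.32 without litter 4 (edgeR FDR 0.487).

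The classes were set side by side by their counts and medians. The 4 ERK-selective members had a median log2 fold change of 0.26 at E9.75+12h (range -1.78 to 0.35) and -0.05 at E9.25+24h (range -1.67 to 0.26). In both, 1 of the 4 was called. The broad nuclear members had medians of -0.43 (2 tested, 1 called) and -0.59 (3 tested, 2 called). For the 3 stress-kinase members the medians were 0.002 and -0.34, with 0 called, and the median over all genes was 0.01 and -0.01. Of the ERK-selective members Dusp6 was the one called, and the other calls, Dusp4 and Dusp1, were in the broad nuclear class. Whether the classes differ was not tested.

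Levels were compared between genes per kb of exon. In con at E9.25+24h the order was Dusp9 at 54.9 ± 7.94, Dusp6 at 25.9 ± 3.44, Dusp4 at 17.3 ± 1.41, Dusp7 at 11.5 ± 2.07 and Dusp16 at 8.91 ± 0.613 CPM per kb (SD, n = 4). Dusp5 at 3.98 ± 0.162 and Dusp1 at 3.77 ± 0.273 CPM per kb came next, with overlapping libraries, and Dusp10, Dusp2 and Dusp8 were at 0.679 ± 0.23, 0.501 ± 0.546 and 0.257 ± 0.228 CPM per kb, also overlapping. In R2b, Dusp9 still led with 65.2 ± 5.10 CPM per kb (SD, n = 4). Dusp6 was at 8.11 ± 3.02 CPM per kb there, a level that could not be separated from that of Dusp4 at 8.85 ± 1.51 and Dusp16 at 8.46 ± 0.144 CPM per kb. Dusp6, the second most abundant phosphatase per kb in con, was thus level with Dusp4 and Dusp16 in R2b.

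Summed per kb, the ERK-selective transcripts had overlapping levels in con and R2b although Dusp6 fell. The sum was 92.5 ± 5.62 CPM per kb in con at E9.75+12h and 89.0 ± 11.7 in R2b (SD, n = 3 each), and 96.3 ± 12.6 and 88.6 ± 9.37 at E9.25+24h (SD, n = 4 each). In both exposures the difference of the means was smaller than the larger SD. Within litters the sum was lower in R2b in 2 of 3 at E9.75+12h (R2b minus con -3.42 ± 6.46 CPM per kb, SD, n = 3) and in 4 of 4 at E9.25+24h (-7.68 ± 5.87, SD, n = 4, from -14.2 to -0.16). Within that sum, the share of Dusp6 was 29.0% ± 3.09 in con and 8.54% ± 1.46 in R2b at E9.75+12h, and 26.9% ± 2.14 and 9.04% ± 2.85 at E9.25+24h. The share of Dusp9 was 50.3% ± 2.35 and 65.8% ± 2.19 at E9.75+12h, and 57.0% ± 1.33 and 73.8% ± 3.15 at E9.25+24h. No con library overlapped an R2b library in either share. Both shares are parts of the same sum, so a fall of Dusp6 raises the share of Dusp9 even where the Dusp9 level stays the same. The Dusp9 share is therefore not a separate measure of a change in Dusp9, whose own levels overlapped between the genotypes in both exposures. The broad nuclear sum was 21.6 ± 2.0 CPM per kb in con and 11.7 ± 2.02 in R2b at E9.25+24h, of which Dusp4 was the largest part, and the stress-kinase sum was 9.85 ± 0.442 and 9.16 ± 0.147.

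**Figure D4:**
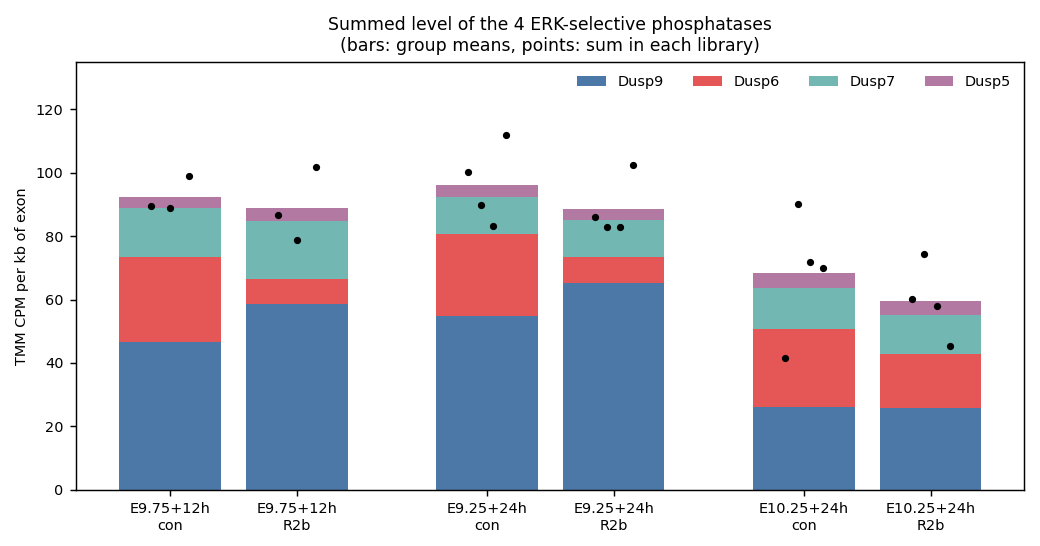
Summed level of the 4 ERK-selective phosphatases (TMM CPM per kb of exon) by exposure and genotype, with stacked bars for the group means of Dusp9, Dusp6, Dusp7 and Dusp5 and points for the sum in each library. The Dusp6 layer is thinner in R2b in the first 2 exposures, while the totals of con and R2b libraries overlap.

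At E10.25+24h the labelled groups overlapped for every member. In litters 1 to 4 Dusp6 read 23.8, 107, 88.9 and 89.9 CPM under the con label and 79.6, 38.9, 60.5 and 36.4 CPM under the R2b label. In litter 1 the library labelled con, with 679 CPM of Ighg1, had the lowest Dusp6 of all 8, and the library labelled R2b, with 54.7 CPM of Ighg1, had the highest Dusp6 among those labelled R2b. Over all 4 litters this gave -0.51 (SE 0.42, edgeR FDR 0.9999). Without litter 1 the means were 95.1 ± 9.88 and 45.3 ± 13.2 CPM (SD, n = 3), with a log2 fold change of -1.05 (SE 0.19, unadjusted p 7.473e-04, edgeR FDR 0.102). With the litter as a block and litter 1 left out it was -1.07 (SE 0.16, edgeR FDR 0.0268), in a fit that called 4.04% of all genes tested and 1.25% in the downward direction. Both fits without litter 1 kept the library labelled con of litter 3, which held 201 CPM of Ighg1. Over all alternatives the FDR ran from 0.0268 to 1.

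Dusp4 showed the same arrangement. It read 21.1, 37.9, 38.1 and 42.7 CPM under the con label and 34.2, 27.5, 28.5 and 25.0 CPM under the R2b label, or -0.27 on the log2 scale (SE 0.20, edgeR FDR 0.9999). Litter 1 again held the lowest value labelled con and the highest labelled R2b. Without it the log2 fold change was -0.53 (SE 0.08, edgeR FDR 0.0780), and with the block as well it was -0.53 (SE 0.08, edgeR FDR 0.0311, range 0.0311 to 1 over all alternatives). Without litter 1, the pools labelled con still included that of litter 3, which held 201 CPM of Ighg1. The Dusp6 and Dusp4 levels of the remaining pools labelled R2b lay below all remaining pools labelled con. So did those of Dusp16, a stress-kinase member, narrowly, at 63.3 to 71.3 CPM against 71.5 to 75.0 CPM (edgeR FDR 0.482).

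Dusp1, called at E9.25+24h, was not called here. It read 6.68, 12.7, 9.51 and 11.0 CPM under the con label and 10.17, 10.4, 9.88 and 9.41 CPM under the R2b label, for a fold change of 0.01 on the log2 scale (SE 0.18, edgeR FDR 0.9999). Without litter 1 it was -0.14 (SE 0.13, edgeR FDR 0.669). Dusp9 was at 46.5 to 99.4 CPM under the con label and 47.9 to 118 CPM under the R2b label, or -0.01 on the log2 scale (SE 0.31), with 2 of 4 litters higher, and the same -0.01 without litter 1 (SE 0.30). Its con mean was 70.7 ± 21.7 CPM against 149 ± 21.6 CPM at E9.25+24h (SD, n = 4 each), but the library names of each exposure carry a prefix of their own, so stage and set of libraries cannot be told apart. Dusp8 held 7.73 CPM in the R2b pool of litter 4 against 2.24 to 3.62 CPM in the other 7 libraries. The same pool had the highest neuroblast marker sum, 469 CPM against 175 to 244 CPM, and the part of those cells in the Dusp8 value was not tested. The log2 fold change of Dusp8 was 0.46 (SE 0.36), and 0.68 (SE 0.43) without litter 1. Dusp7 and Dusp5 were at -0.08 each (SE 0.12 for both), and at -0.13 and -0.05 without litter 1. Dusp2, Dusp10 and Dusp16 were at 0.21, 0.06 and -0.08, and at 0.25, 0.15 and -0.10 without litter 1. None of these was called by edgeR with or without that litter. By class, the medians with and without it were -0.08 and -0.09 for the ERK-selective members, 0.01 and -0.14 for the broad nuclear members and 0.06 and 0.15 for the stress-kinase members.

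Differences of effects between exposures were tested directly in 1 fit of all libraries. For E9.25+24h minus E9.75+12h, 0 of the 10 members and 0% of 15688 genes were called in edgeR, with 1908 genes at an unadjusted p under 0.05. DESeq2 called 92 genes. For Dusp6 the difference was 0.13 (SE 0.53, edgeR FDR 0.947) and for Dusp4 -0.21 (SE 0.30, edgeR FDR 0.819). For E10.25+24h minus E9.25+24h, 0 members and 0% of genes were called again, with 1344 genes at an unadjusted p under 0.05 and 74 calls in DESeq2. The differences were 1.16 for Dusp6 (SE 0.48, unadjusted p 0.0269, edgeR FDR 0.515), 0.69 for Dusp4 (SE 0.27, p 0.0203, FDR 0.487) and 0.60 for Dusp1 (SE 0.20, p 0.00679, FDR 0.348). Without litter 1 of E10.25+24h, which goes against its labels, these differences were 0.61 (SE 0.34, edgeR FDR 0.9999), 0.42 (SE 0.23, FDR 0.9999) and 0.44 (SE 0.16, FDR 0.784). The 2 contrasts share the E9.25+24h libraries. The falls were thus not shown to differ between exposures.

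The genes whose level followed Dusp6 most closely over the 22 libraries, each centred on the mean of its exposure, were Etv4 (Pearson r 0.984), Etv5 (0.982), Spry2 (0.975), Spred2 (0.974) and Ptpn9 (0.971). Etv4 and Etv5 are ETS transcription factors, Spry2 and Spred2 are inhibitors of receptor signalling to ERK, and Ptpn9 is a tyrosine phosphatase. Within the family Dusp4 came nearest, with r of 0.911 (position 27 of 12683 genes ranked). Dusp1 had 0.781 (position 640) and Dusp16 0.565 (position 2625). The remaining members lay between -0.132 (Dusp9) and 0.094 (Dusp5). Within exposures these values varied. In the 6 libraries of E9.75+12h, the 8 of E9.25+24h and the 8 of E10.25+24h in turn, r with Dusp6 was 0.907, 0.897 and 0.955 for Dusp4 and 0.885, 0.869 and 0.786 for Dusp1. For Dusp9 it was -0.616, -0.506 and 0.276, for Dusp7 -0.753, 0.183 and 0.382, and for Dusp5 -0.381, 0.883 and 0.12. Without litter 1 of E10.25+24h, r in the remaining 6 libraries was 0.984 for Etv4, 0.924 for Dusp4, 0.572 for Dusp1, 0.075 for Dusp9, 0.5 for Dusp7 and 0.209 for Dusp5. These values describe libraries that share litters and a genotype contrast, and no p was attached to them.

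**Figure D5:**
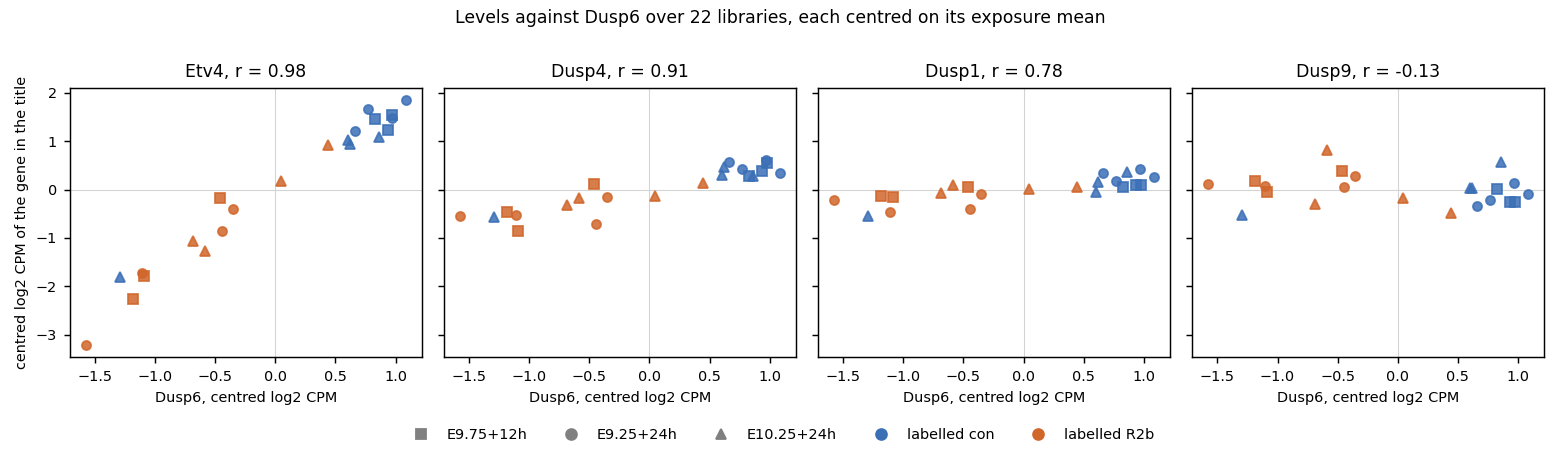
Centred log2 CPM of Etv4, Dusp4, Dusp1 and Dusp9 (y axis) against that of Dusp6 (x axis) over 22 libraries, with symbols for the exposure and colours for the label. Etv4 and Dusp4 rise with Dusp6 (Pearson r 0.984 and 0.911), Dusp1 does so over a narrower range (0.781), and Dusp9 has -0.132 over all libraries but -0.616, -0.506 and 0.276 within the 3 exposures in turn.

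Other genes of the pathway were read from lists grouped by role. Of 13 further feedback and readout genes of FGF and ERK signalling, 11 fell and 0 rose in each exposure that ended at E10.25, with medians of -1.31 and -1.22. Spry2, a Sprouty inhibitor, went from 33.2 to 12.4 CPM at E9.75+12h (log2 fold change -1.40, SE 0.16, edgeR FDR 5.68e-04) and from 29.7 to 12.4 CPM at E9.25+24h (-1.25, SE 0.12, FDR 8.04e-04). Etv5 fell from 99.1 to 19.2 CPM and from 114 to 21.3 CPM. Of 22 ERK cascade genes, 2 rose at E9.75+12h: Ksr1, a scaffold of the cascade, by 0.78 (SE 0.12, edgeR FDR 0.00200) and the adaptor Gab1 by 0.46 (SE 0.09, FDR 0.00518). Of all 14882 genes tested 1518 rose there, a share near that of the list. At E9.25+24h 1 rose, with Gab1 at 0.35 (edgeR FDR 0.0108), where 1362 of all 14979 genes tested rose. With the litter block 2 rose, where 20.5% of all genes tested rose. Without the block, the genes that fell at E9.25+24h included the kinase genes Rps6ka3 (-0.25, edgeR FDR 0.0191) and Map2k1 (-0.29, FDR 0.0420). The medians of the list were -0.08 and -0.04.

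Dusp8, Dusp10 and Dusp16 act on the kinases of the JNK and p38 cascades. Of 22 genes of these cascades, 0 fell and 3 rose at E9.75+12h, where 1518 of all 14882 genes tested rose, a share near that of the list. These were the JNK scaffold Mapk8ip2 (0.94, SE 0.23, edgeR FDR 0.0160), the p38 substrate kinase Mapkapk3 (0.62, SE 0.16, FDR 0.0181) and the upstream kinase Map3k12 (0.38, SE 0.11, FDR 0.0359). The genes of the JNK and p38 kinases themselves, Mapk8 to Mapk14, were not called there. Neuroblast markers, 4 of 6 of which rose there, had sums of 396 to 456 CPM in R2b against 275 to 305 CPM in con, and their part in these 3 rises was not tested. With the litter block 1 of the 22 rose. At E9.25+24h 0 of the 22 were called, and with the block 4 fell and 1 rose, a smaller share than the 40.6% of all genes called in that fit. Immediate early and stress genes are a rapidly induced group to which Dusp1 also belongs. At E9.75+12h 2 of 8 tested rose, Zfp36 by 0.55 (SE 0.16, edgeR FDR 0.0323) and Btg2 by 0.49 (SE 0.14, FDR 0.0328), and 0 with the litter block. Among 9 of them at E9.25+24h, 0 fell and 2 rose, Jun by 0.33 (SE 0.07, edgeR FDR 0.0205) and Btg2 by 0.33 (SE 0.10, FDR 0.0496), and with the litter block 1 fell and 4 rose. Of all 14979 genes tested 1362 rose there, and with the block 3015 fell and 3071 rose. The summed level of the immediate early and stress genes at E9.25+24h was 160 to 177 CPM in con and 170 to 176 CPM in R2b. At E10.25+24h no gene of these lists was called. With the block and litter 1 left out 10 of the 13 feedback genes fell, where 1.25% of all genes tested fell.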

How the data were processed

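The authors deposited raw read counts per gene for 15736 Ensembl genes. Reads were aligned with Novoalign 2.08.03 and the build was mm10, per the submitters' processing notes. The counting tool, annotation release, use of strand and any filter are not given in the sources used here, and every gene had at least 100 counts in total over the columns used. Column names were matched to sample titles: 22 of 24 samples had a column, 2 columns matched no listed sample and were not used, and E9.75+12h therefore has 3 litters. Symbols, positions and exon lengths came from GENCODE M21 on GRCm38, which gave 15522 genes a symbol.

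Counts were tested in edgeR 4.0.16 under R 4.3.3 (filterByExpr, TMM, glmQLFit, glmQLFTest), each exposure alone with 2 group means. Differences of effects were contrasts of 6 group means in 22 libraries. The FDR is the Benjamini-Hochberg value over all genes tested, with a threshold of 0.05. SEs were derived from the F statistic. Fitted fold changes used a prior count of 0.125 and log2 CPM a prior count of 2. The fit was tested on simulated data. The alternatives tried were DESeq2 1.42.0, size factors by median of ratios, all genes kept whatever their counts, a litter block, all libraries in 1 fit, only the compared exposures, and each litter or library left out. The named genes are the members, at most 3 called genes per list and exposure, and the 5 genes most correlated with Dusp6 among those with a mean log2 CPM of at least 1. The called genes were drawn from the 3 smallest FDRs among the results reported here, and not all of these are named. The members and lists were chosen with earlier results of these data known. Genes of the lists that had no row in the table were not analysed here. One result of the ERK cascade list is not reported here, and the number of its genes that fell is therefore not given.

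The labels state that each pregnant female gave a con and an R2b pool, so litters pair the samples. Same-litter correlations of deviations from group means in litter order, were -0.08, -0.23 and -0.24 for E9.75+12h. For E9.25+24h they came to 0.36, 0.45, 0.73 and 0.72. For E10.25+24h they came to -0.10, 0.37, 0.30 and 0.28. Library totals of 18.7 to 28.2 M counts carry no molecular identifiers, so spread was taken between litters. Exons of Dusp1 and Dusp8 share 11 and 66 bases with genes on the opposite strand.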

Additional observations from a re-analysis of the deposited data

Results flagged for a closer look

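Each member was examined in each group of 4 libraries for a library far from the other 3 by Dixon's criterion. Of 40 such groups 7 met it, where chance gives about 1 in 20. At E9.25+24h litter 4 accounted for 4 of them. Dusp7 was at 49.1 CPM in its con pool, next to 36.4 CPM in the nearest library, and at 51.0 CPM in its R2b pool, next to 35.5 CPM. Dusp2 was at 1.53 CPM in its R2b pool, next to 0.582 CPM, and Dusp8 at 2.91 CPM in its con pool, next to 0.867 CPM. Mesenchymal markers summed to 1331 and 1227 CPM in these pools, against at most 426 CPM in the others of that exposure. The R2b pool of litter 4 held 0.668 CPM of Dusp8, the lowest of its group. The con pool of litter 4 also had the highest neuroblast sum, 344 CPM against 187.9 to 220.5 CPM, and the highest blood (1627 CPM) and endothelial (218 CPM) sums. The part of these tissues was not tested.

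At E10.25+24h the library labelled R2b of litter 2 held 118 CPM of Dusp9 next to 59.6 CPM, while the con pool of that litter held 99.4 CPM, also the highest of its label. The con pool of litter 4 held 0.276 CPM of Dusp2 next to 0.710 CPM, a matter of 6 counts against 14 to 18. The R2b pool of litter 4 held 7.73 CPM of Dusp8 next to 3.12 CPM, or 180 counts against 60 to 87.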

How the results depend on the processing

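Among 1103 recomputed values of single members, 1006 kept their direction and their side of the threshold, 11 lost a call, 14 gained one and 72 changed sign. None of the 5 calls changed sign, and the cause of the changes was not tested. Dusp6 was called in all 17 alternatives at E9.75+12h and 20 of 21 at E9.25+24h, Dusp4 in 10 of 17 and 21 of 21, and Dusp1 in 18 of 21 at E9.25+24h. With a litter or a library left out, with or without the litter block, the number of members called ran from 1 to 3 at E9.75+12h (2 with all), from 1 to 5 at E9.25+24h (3 with all) and from 0 to 2 at E10.25+24h (0 with all). The low at E9.75+12h came without litter 1, the con pools of litters 1 or 2, or the R2b pool of litter 1, through Dusp4. That at E9.25+24h came without litter 2. The high of 5 came with the block and without litter 4, through Dusp9 and Dusp16, in a fit that called 41.2% of all genes, and the 2 at E10.25+24h with the block and without litter 1. The block with all litters gave 2, 4 and 0 members, and apart from Dusp9 at E9.25+24h it changed no call of a member. No member differed between exposures in any alternative.

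Signs changed only for values without a call. With litters or libraries left out, log2 fold changes ran at E9.75+12h -0.53 to 0.90 for Dusp8; at E9.25+24h -0.13 to 0.15 for Dusp7, -1.05 to 0.66 for Dusp2, -0.87 to 0.32 for Dusp8; and at E10.25+24h -0.14 to 0.019 for Dusp7, -0.38 to 0.19 for Dusp9, -0.14 to 0.15 for Dusp1, -0.15 to 0.44 for Dusp2, -0.032 to 0.68 for Dusp8, -0.082 to 0.18 for Dusp10. Differences of effects, E9.25+24h minus E9.75+12h, ran -0.11 to 0.39 for Dusp6, -0.39 to 0.12 for Dusp4, -1.32 to 0.33 for Dusp8, -0.018 to 0.12 for Dusp16, and for E10.25+24h minus E9.25+24h -0.0037 to 0.074 for Dusp5, -0.049 to 0.042 for Dusp16. Dusp8 at E9.75+12h, 0.002 with the settings used, was -0.0078 with median-of-ratios size factors, -0.0072 without a filter, -0.0040 in DESeq2 and -0.018 with all libraries in 1 fit. The Dusp16 difference for E10.25+24h minus E9.25+24h was 0.014 with median-of-ratios size factors, 0.015 in DESeq2 and 0.012 with the compared exposures alone. Dusp2, Dusp8 and Dusp10 had 2 to 180 counts per library.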

Other observations

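The atypical dual specificity phosphatases are relatives of the members that lack their MAP kinase binding domain. Of 11 tested, 0 were called at E9.75+12h, where 20.0% of all genes tested were called. Their log2 fold changes there were above 0 in 8 and below 0 in 3, with a median of 0.24 against 0.01 over all genes. At E10.25+24h 0 were called with or without litter 1, as were 0% of all genes. At E9.25+24h the median was -0.01 and Dusp3, which encodes a small phosphatase that can act on ERK and JNK, rose from 13.5 to 17.6 CPM (log2 fold change 0.39, SE 0.11, edgeR FDR 0.0491). It was the 1 call among the 11, where 1362 of all 14979 genes tested rose. With the litter block 3 of the 11 rose there, in a fit where 20.5% of all genes tested rose. Ptpn5, a tyrosine phosphatase of MAP kinases, passed the filter on low counts at E10.25+24h alone and had a log2 fold change of 0.48 there (0.435 without litter 1), without a call.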
